A study of Mus musculus with 9 samples.

Results

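The receptors and ligands through which B cells receive survival signals were followed as 6 genes chosen by name: Tnfrsf13c (BAFF-R), Tnfrsf13b (TACI), Tnfrsf17 (BCMA), Cd40, Tnfsf13b (BAFF) and Tnfsf13 (APRIL), out of 55322 genes in the expression table. All 6 were in the table. RNA-seq had been performed on 9 libraries from WT mice, 3 in each of 3 groups. CD11b- B cells and CD11b+ B cells, the myeloid-like (M-B) cells, had been sorted from the BM of mice 48 h after an intraperitoneal injection of 5 mg/kg LPS, and CD11b+F4/80+ peritoneal macrophages (PMs) from the peritoneal cavity of naive mice that received no treatment. Before the B cell sort, cells bearing CD3, CD4, CD8, Gr-1 (carried by granulocytes), NK1.1 or TER119 had been removed with magnetic beads. PMs therefore differed from both B cell groups in cell type, tissue and LPS treatment, which cannot be told apart here. The labels number the libraries 1 to 3 in each group without saying whether each came from its own mouse, so that p-values measure the spread between these libraries.

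Tnfrsf13c, Tnfrsf13b and Tnfrsf17 encode the 3 receptors of BAFF and APRIL. BAFF-R binds BAFF alone and keeps mature B cells alive through the noncanonical NF-kB pathway, in which loss of TRAF3 frees the kinase NIK to process NF-kB2. TACI and BCMA bind both ligands, and BCMA is best known from plasma cells. CD40 receives a signal from CD40 ligand on T cells and is carried by B cells, macrophages and dendritic cells, whereas BAFF and APRIL are produced mainly by myeloid and stromal cells.

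The libraries held 18014658 to 35251215 reads on genes. Expression is given as FPKM, reads scaled to the exon length of the gene and the reads of the library, a scale on which levels of different genes can be set side by side. All 15 mature B cell markers reported here were higher in both B cell groups than in PMs, and all 17 monocyte and macrophage markers were lower (limma, adjusted p under 0.05 for each). Itgam, which encodes CD11b, was at 0.4, 0.251 and 0.869 FPKM in CD11b- B cells, 1.92, 1.31 and 1.51 FPKM in CD11b+ B cells, and 358, 254 and 251 FPKM in PMs. Both B cell libraries numbered 3 carried more transcripts of B cell precursors than the other B cell libraries, which held them too. The summed FPKM of 12 precursor genes was 1408 in CD11b- replicate 3 and 636 in CD11b+ replicate 3, against 305 to 423 in the other 4 B cell libraries. The differences of the members between the B cell groups are also given without these libraries.

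B cells of the BM expressed the BAFF-R, TACI and CD40 genes and almost none of the ligands. Tnfrsf13c was the most abundant of the 6 genes, followed by Tnfrsf13b and Cd40, and in both B cell groups these 3 levels did not overlap with each other. PMs showed the opposite picture for the ligands, with Tnfsf13b and Tnfsf13 transcripts that were at or near 0 in B cells. Between the B cell groups, none of the 5 genes tested passed the limma test, and edgeR without a filter on low values called Tnfrsf17 (adjusted p = 0.0139). CD11b+ B cells had a Tnfrsf17 level that varied widely between libraries, a lower Cd40 level in every library and a trace of Tnfsf13b.

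**Figure D1:**
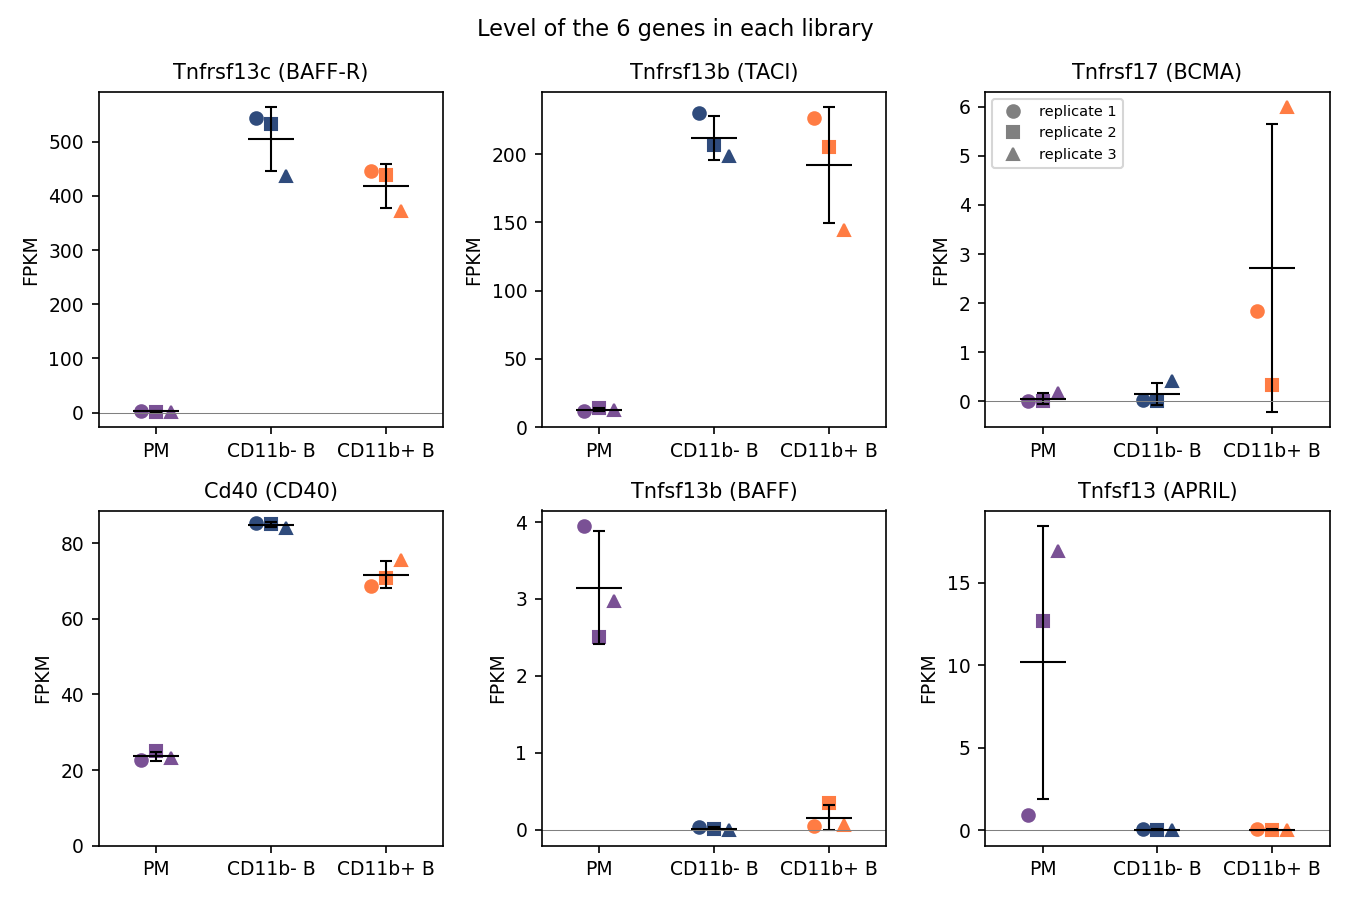
FPKM (linear axis from 0 upward, 1 panel per gene) of the 6 genes in the 9 libraries, with horizontal bars for the mean and whiskers for the SD (n = 3 per group). The receptors Tnfrsf13c, Tnfrsf13b and Cd40 were high in both B cell groups, Tnfsf13b and Tnfsf13 were high in PMs, and PM replicate 1 had far less Tnfsf13 (0.949 FPKM) than the other PM libraries.

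Tnfrsf13c lies on chromosome 15 from 82221743 to 82224369 on the minus strand (GRCm38, GENCODE M21). It was at 543, 533 and 436 FPKM in CD11b- B cells (504 ± 59.2, SD, n = 3) and at 446, 438 and 372 FPKM in CD11b+ B cells (419 ± 40.3). The groups overlapped, with replicate 3 the lowest library of each. Their difference was -0.27 on the log2(FPKM + 1) scale (SE 0.17, 95% CI -0.67 to 0.14, limma adjusted p = 0.727), and was -0.28 without the libraries numbered 3. PMs held 3.31, 1.62 and 1.84 FPKM (2.26 ± 0.917), far below every B cell library. The log2 difference from PMs was 7.04 for CD11b+ B cells (SE 0.23, limma adjusted p = 8.0e-07) and 7.31 for CD11b- B cells (SE 0.22, limma adjusted p = 6.99e-07).

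Tnfrsf13b occupies 61126755 to 61149372 on the plus strand of chromosome 11. It was at 230, 206 and 199 FPKM in CD11b- B cells (212 ± 16.3, SD, n = 3) and at 226, 205 and 144 FPKM in CD11b+ B cells (192 ± 42.4). The ranges overlapped, and the lowest library by a wide margin was CD11b+ replicate 3. Its log2 difference between the B cell groups was -0.16 (SE 0.19, 95% CI -0.60 to 0.28, limma adjusted p = 0.767), without CD11b+ replicate 3 it was 0.028, and without both libraries numbered 3 it was -0.016. PMs contained 11.9, 14.0 and 12.6 FPKM (12.8 ± 1.10), which was lower than in CD11b+ B cells by a log2 difference of 3.78 (SE 0.21, limma adjusted p = 9.46e-06) and than in CD11b- B cells by 3.94 (SE 0.15, limma adjusted p = 1.63e-06).

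Tnfrsf13c was the largest part of the BAFF and APRIL receptor transcripts in both B cell groups. It made up 68.7 to 72.1% of the summed FPKM of Tnfrsf13c, Tnfrsf13b and Tnfrsf17 in CD11b- B cells, and in the CD11b+ group this share was 66.2 to 71.2%. Tnfrsf17 made up 0 to 0.0663% in CD11b- and 0.051 to 1.15% in CD11b+ B cells. In PMs the share of Tnfrsf13c was 10.4 to 21.8%, and Tnfrsf13b made up 78.2 to 89.6%. The log2 ratio of Tnfrsf13b to Tnfrsf13c was -1.25 ± 0.118 (SD, n = 3) in CD11b- B cells and -1.14 ± 0.197 in CD11b+ B cells, a difference of 0.10 (two-sided exact permutation test, p = 0.4). With 3 libraries against 3, this test cannot give a p below 0.1.

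The bases before the annotated starts of these receptor genes are shown because they belong to the highest transcripts of the system, and those of Tnfsf13b because it had the opposite pattern. They are the 250 bases upstream of the RefSeq start (GRCm38.p6), 5′ to 3′ on the strand of the gene, with capitals for the only match to any of 5 short motifs searched on both strands. The motifs, chosen after the sequences had been seen, were the E-box CAGGTG, the NF-kB core GGGNNTTCC, the interferon response core GAAANNGAA, the EBF motif CCCNNGGGA and the PU.1 motif GAGGAAG. The windows are chr15:82224381-82224630 on the minus strand, chr11:61126505-61126754 on the plus strand and chr8:10006217-10006466 on the plus strand.
Tnfrsf13c: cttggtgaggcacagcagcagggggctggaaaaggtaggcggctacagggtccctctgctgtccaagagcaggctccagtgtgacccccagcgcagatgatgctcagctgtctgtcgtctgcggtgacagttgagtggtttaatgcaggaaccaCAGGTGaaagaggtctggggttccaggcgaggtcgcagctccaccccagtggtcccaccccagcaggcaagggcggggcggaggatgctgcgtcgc
Tnfrsf13b: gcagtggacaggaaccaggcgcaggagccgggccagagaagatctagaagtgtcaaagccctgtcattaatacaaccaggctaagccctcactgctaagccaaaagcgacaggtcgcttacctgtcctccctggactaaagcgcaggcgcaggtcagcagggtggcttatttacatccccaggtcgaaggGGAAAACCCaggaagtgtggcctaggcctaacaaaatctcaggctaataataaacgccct
Tnfsf13b: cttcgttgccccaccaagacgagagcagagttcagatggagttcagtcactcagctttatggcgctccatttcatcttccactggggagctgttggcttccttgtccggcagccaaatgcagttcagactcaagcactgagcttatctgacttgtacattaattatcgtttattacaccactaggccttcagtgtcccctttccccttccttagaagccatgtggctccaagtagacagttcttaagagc

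The Tnfrsf13c window held the E-box at position -96 from the start, on the strand of the gene. This motif was found in 17.2% of 32851 such windows, from the 27025 genes with an entry. The Tnfrsf13b window held the NF-kB core at position -60 on the opposite strand, found in 4.98% of windows. None of the 5 motifs matched in the Tnfsf13b window. RefSeq lists a second start of Tnfsf13b further into the gene, and before it an interferon response core was found at position -16 (capitals, 25 bases, plus strand, chr8:10006607-10006631).
Tnfsf13b, second start: tacaaaaactGAAAGTGAAatgcgg

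The interferon response core occurred in 7.13% of windows, the EBF motif in 5.6% and the PU.1 motif in 10.6%. A match is a description of letters and not a bound site. Entries existed for 5 of the 6 genes, all but Cd40. The Tnfrsf17 window matched the interferon response core at position -100 on the opposite strand, and the Tnfsf13 window matched none of the motifs.

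Tnfrsf17, on chromosome 16 from 11313812 to 11320074 on the plus strand, encodes the receptor typical of plasma cells. CD11b+ B cells had 1.84, 0.328 and 5.99 FPKM (44, 7 and 172 reads), and CD11b- B cells 0.0368, 0 and 0.421 FPKM (1, 0 and 11 reads). Replicate 3 was highest in each group, and the lowest CD11b+ library lay below the highest CD11b- library. The log2 difference was 1.39 (SE 0.54, 95% CI 0.14 to 2.63), but it did not pass the limma test over all genes (adjusted p = 0.636). From the pooled reads, the fold was 20.5 (exact 95% interval 11.5 to 40.3, counting error only). It was 7.68 without CD11b+ replicate 3, 13.4 without CD11b- replicate 2 and 168 without CD11b- replicate 3, which left 1 read (29.8 to 6652). Without the libraries numbered 3 the means were 1.08 and 0.0184 FPKM (log2 difference 0.93, limma adjusted p = 0.514). PMs had 0, 0 and 3 reads, and the log2 difference from PMs was 1.49 in CD11b+ B cells (SE 0.55, limma adjusted p = 0.0755) and 0.11 in CD11b- B cells (SE 0.17, limma adjusted p = 0.631). The added 1 FPKM shrinks these differences, and the pooled reads gave 55.2-fold more in CD11b+ B cells than in PMs (18.6 to 270). CD11b+ replicate 3 supplied 172 of the 223 CD11b+ reads behind this fold, which therefore rested largely on that library. The difference of CD11b+ B cells from PMs passed the test in 7 of 16 alternatives, at log2 differences of up to 5.86.

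Plasma cell transcripts were measured in the same libraries. The summed FPKM of 13 plasma cell markers was 496, 457 and 891 in CD11b+ B cells and 253, 255 and 332 in CD11b- B cells, and 7 of the 13 were higher in every CD11b+ library, beside 14.9% of all genes whose ranges did not overlap in either direction. Of the 13, limma called 0 between the B cell groups. At an unadjusted p under 0.05 by limma, 6 were higher, beside 1012 of all 21778 genes. Jchain, which encodes the joining chain of secreted IgM and IgA, was at 101, 83.9 and 449 FPKM in CD11b+ B cells and 6.18, 17.4 and 22.7 FPKM in CD11b- B cells. CD11b+ replicate 3 was highest for Tnfrsf17, for the marker sum and for Jchain. Prdm1, the plasma cell transcription factor, was at 2.21, 1.41 and 1.51 FPKM in CD11b+ B cells and 0.0859, 0.324 and 1.99 FPKM in CD11b- B cells, so its groups overlapped. The part of these cells in the Tnfrsf17 level was not tested, and in bulk RNA more cells of a type and more RNA per cell cannot be told apart.

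Cd40 spans 165055627 to 165072948 on the plus strand of chromosome 2. The 3 CD11b- libraries were nearly equal at 85.4, 85.1 and 84.2 FPKM (84.9 ± 0.638, SD, n = 3), and the CD11b+ libraries were at 68.8, 70.8 and 75.7 FPKM (71.7 ± 3.55). Every CD11b+ library was below every CD11b- library. The log2 difference was -0.24 (SE 0.12, 95% CI -0.51 to 0.03), which did not pass the test over all genes (limma adjusted p = 0.676, and a two-sided exact permutation test gave p = 0.1, the smallest it allows). Without the libraries numbered 3 it was -0.29 (limma adjusted p = 0.425). Cd40 was present in PMs at 22.8, 25.1 and 23.2 FPKM (23.7 ± 1.22). B cells were higher than PMs by a log2 difference of 1.56 in the CD11b+ group (SE 0.16, limma adjusted p = 0.000256) and 1.80 in the CD11b- group (SE 0.14, limma adjusted p = 5.72e-05). The gene of its ligand, Cd40lg, had 1 read in the 9 libraries together.

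The receptors in PMs were set beside the B cell markers measured in the same libraries. In PMs, 15 B cell markers were at 0.341 to 6.61% of their mean level in CD11b- B cells, with a median of 1.11%. Tnfrsf13c was at 0.447%, below that median. Tnfrsf13b, at 6.06%, was above the median and below the highest of these markers, Cxcr5, and Cd40, at 27.9%, was above all 15. Without PM replicate 1, Tnfrsf13b was at 6.29% and above all 15 as well, with Cxcr5 at 3.59%. PM replicate 1 had the highest B cell marker sum (268 FPKM against 139 and 159) and the highest Tnfrsf13c, but the lowest Tnfrsf13b and Cd40 of the 3 PM libraries. The part of B cell RNA in the PM values was not tested.

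**Figure D2:**
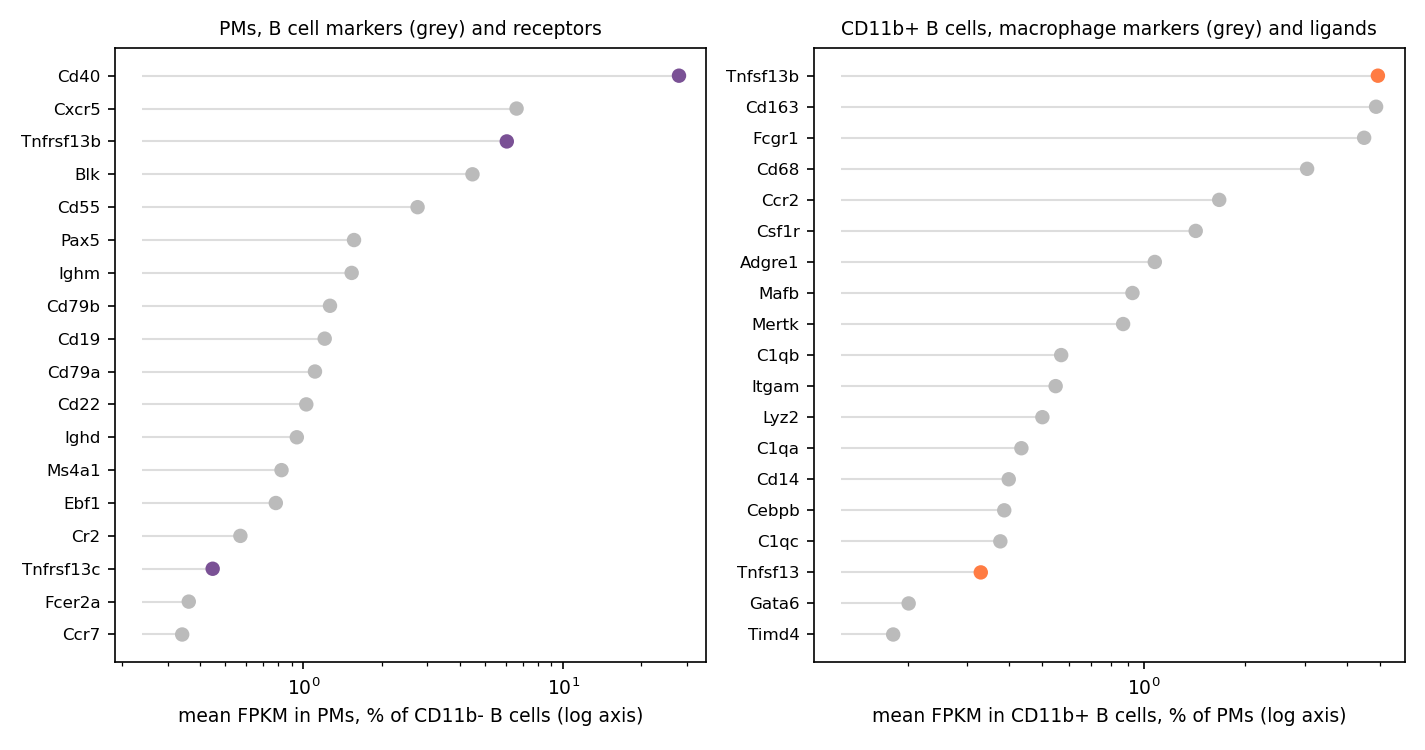
Mean FPKM as a percentage of a reference group (log axes, 1 point per gene, n = 3 libraries per mean). On the left, Cd40 (27.9%) in PMs was above all 15 B cell markers (grey) relative to CD11b- B cells while Tnfrsf13c (0.447%) was near the bottom. On the right, Tnfsf13b in CD11b+ B cells (4.93% of PMs) was above the 17 monocyte and macrophage markers (grey), though at 1.92% and below 3 of them without CD11b+ replicate 2, and Tnfsf13 (0.329%, from 5 reads) was below 15 of them, or below 10 to 17 at 0.0851 to 0.494% with 1 CD11b+ library left out.

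Tnfsf13b, the BAFF gene, lies on chromosome 8 from 10006467 to 10039072 on the plus strand. PMs had 3.95, 2.51 and 2.98 FPKM (3.15 ± 0.737, SD, n = 3; 489, 503 and 413 reads). CD11b- B cells had 7, 3 and 0 reads and CD11b+ B cells 11, 62 and 16 reads, the latter being 0.0545, 0.345 and 0.0661 FPKM. Both B cell groups were below PMs, by log2 differences of -1.84 for CD11b+ (SE 0.29, limma adjusted p = 0.00252) and -2.02 for CD11b- (SE 0.25, limma adjusted p = 0.000742). At these low levels the added 1 FPKM shrinks the log2 difference. The pooled reads gave 21.3-fold more Tnfsf13b in PMs than in CD11b+ B cells (exact 95% interval 17.2 to 26.7, counting error only) and 209-fold more than in CD11b- B cells (113 to 437). One library moved each value, since the folds were 49.9 without CD11b+ replicate 2 and 465 without CD11b- replicate 1, which left 3 reads (159 to 2258).

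Each CD11b+ library had more Tnfsf13b than each CD11b- library. The log2 difference was 0.18 (SE 0.13, 95% CI -0.11 to 0.47, limma adjusted p = 0.727; 0.22 without the libraries numbered 3, limma adjusted p = 0.738), and the fold of the pooled reads was 9.83 (exact 95% interval 5.11 to 21.2, counting error only). CD11b+ replicate 2 supplied 62 of the 89 reads, and the fold was 4.19 without it and 21.9 without CD11b- replicate 1 (7.25 to 108). Markers of other myeloid cells had larger sums in CD11b+ B cells. The sum of 15 neutrophil markers was 666, 1595 and 219 FPKM in the CD11b+ libraries and 2.06 to 3.30 FPKM in the CD11b- libraries, and replicate 2 was highest here too. Of these 15, limma called 3 higher (S100a8, S100a9 and Retnlg) and 0 lower, beside 0.0689% and 0.0% of all genes. With the number in the library description as a replicate block, limma called 0 of all 21778 genes. The sum of 17 monocyte and macrophage markers was 327, 304 and 125 FPKM against 42.6 to 61.1 FPKM, with no marker at 0 in any CD11b+ library. Of the 16 tested, limma called 0, and 11 were higher at an unadjusted p under 0.05, beside 1012 of all 21778 genes. In CD11b+ B cells these 17 markers were at 0.181 to 4.87% of their PM level (median 0.569%), and Tnfsf13b was at 4.93%. This value rested on CD11b+ replicate 2, without which Tnfsf13b was at 1.92%, above 14 of the 17 markers and below 3. The part of such cells in the Tnfsf13b reads was not tested.

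Tnfsf13, the APRIL gene, lies on the minus strand of chromosome 11 from 69682846 to 69685784. PMs had 0.949, 12.7 and 16.9 FPKM (28, 607 and 558 reads), so that replicate 1 was far below the other PM libraries. CD11b- B cells had 3, 0 and 0 reads and CD11b+ B cells 4, 0 and 1 reads, too few for the filter of the comparison between them. B cells were lower than PMs by log2 differences of -2.92 in the CD11b+ group (SE 0.77, limma adjusted p = 0.0228) and -2.94 in the CD11b- group (SE 0.78, limma adjusted p = 0.0209). These calls were lost when any 1 library other than PM replicate 1 was left out, with limma adjusted p up to 0.0843 and 0.0763. With 1 library left out, the log2 differences were -3.92 to -2.32 in the CD11b+ group and -3.94 to -2.34 in the CD11b- group.

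Tnfsf13 overlaps other annotated genes. Of 1637 exon bases of Tnfsf13, 983 (60.0%) are shared with Tnfsfm13, a read-through gene that joins Tnfsf12 (TWEAK) to Tnfsf13. Of these shared bases, 221 also lie opposite the antisense gene Tnfsf13os, and 654 bases are in Tnfsf13 alone. The strand setting of the counting was not given in the sources used here. Tnfsf12 was at 30.3, 14.2 and 13.8 FPKM in PMs and Tnfsfm13 at 7.25, 2.31 and 5.17 FPKM, and both were highest in replicate 1. Added together, the reads of the 3 genes came to 63.7, 47.5 and 60.2 RPM (reads per 1000000 reads on genes) in PMs (57.1 ± 8.51, SD, n = 3), of which Tnfsf13 held 2.44, 43.8 and 46.0%. On this sum PM replicate 1 was the highest library. CD11b- B cells had 14 reads and CD11b+ B cells 11 reads on the 3 genes together. The summed value was lower in both B cell groups than in PMs, by log2 differences of -5.68 and -5.66 after 1 was added to each value (limma adjusted p = 1.72e-06 and 1.37e-06 for CD11b+ and CD11b-). How the reads were divided among the overlapping genes was not tested.

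**Figure D3:**
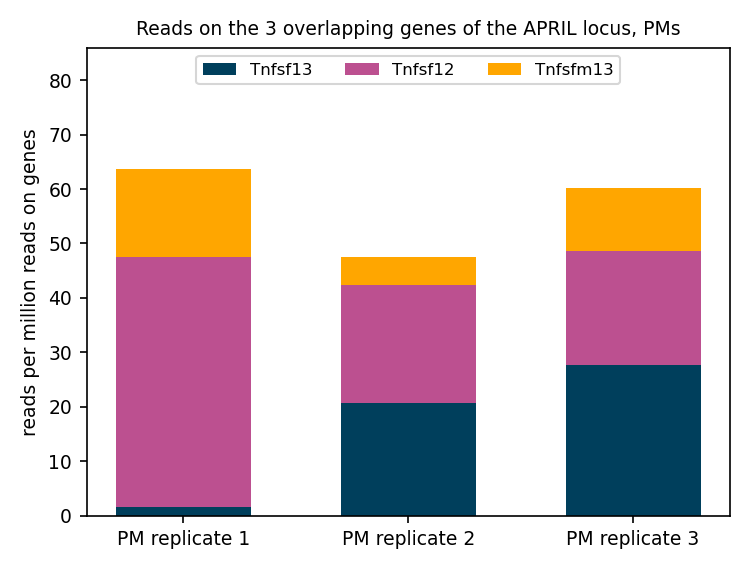
RPM, scaled to the reads on genes (stacked bars from 0), assigned to Tnfsf13, Tnfsf12 and Tnfsfm13 in the 3 PM libraries. The total was 47.5 to 63.7 RPM while the Tnfsf13 part was 2.44% of it in replicate 1 and 43.8 and 46.0% in replicates 2 and 3.

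Read against all genes, the absence of calls between the B cell groups was the common outcome. Of 21778 genes tested, 0.0689% were called higher in CD11b+ B cells by limma (15 genes) and 0.0% lower, where 1012 and 661 genes had an unadjusted p under 0.05, Tnfrsf17 among the former. Of the 5 members tested, 0 were called, and edgeR and DESeq2 on the reads also called 0 of 5. Without a filter, edgeR called only Tnfrsf17 of the 6. The ranges of the 2 groups did not overlap for Cd40 and Tnfsf13b, 2 of the 5 members tested, and for 14.9% of all genes. Against PMs, 3 of the 6 members were called higher and 2 lower in each B cell group. Of all genes, 21.5% had higher and 8.78% had lower calls in CD11b+ B cells relative to PMs (4760 and 1940 of 22102), and 25.8% and 11.0% in CD11b- B cells (5404 and 2306 of 20985). These splits depended on the scaling. With median-ratio scaling they were 2918 and 2555 genes, and 3401 and 3079 genes, with a median shift per gene of -0.24 and -0.27 on the log2 scale, and the median log2 difference over all genes went from 0.25 to 0.12 and from 0.24 to 0.085. The same 5 members were called in both comparisons under that scaling. Both comparisons share the PM libraries.

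**Figure D4:**
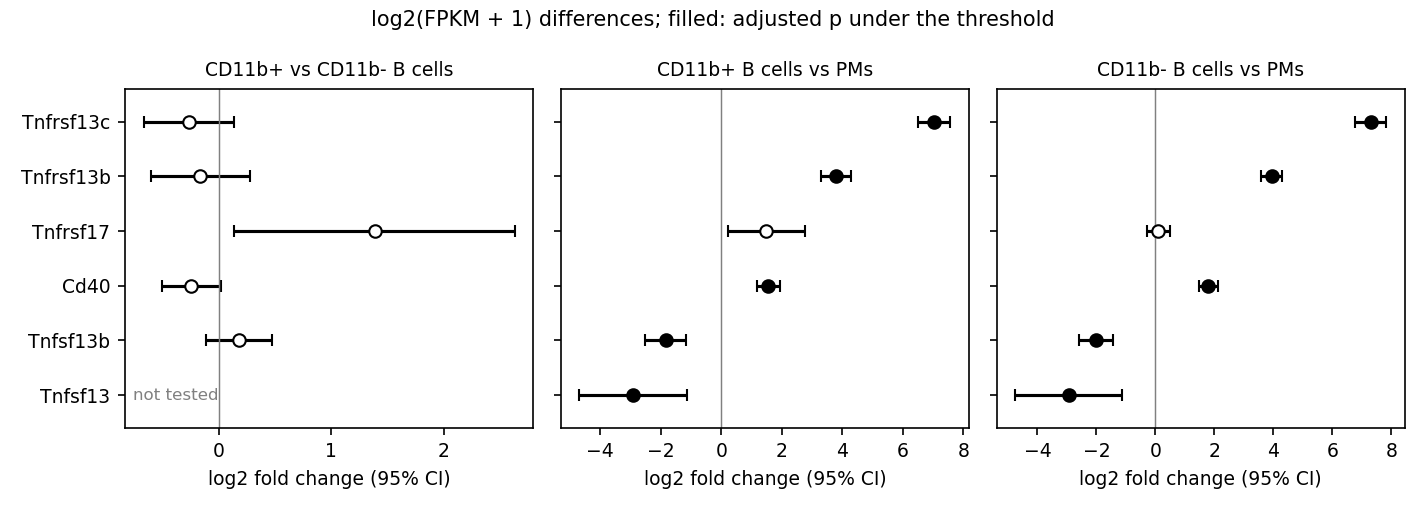
log2 fold change on the log2(FPKM + 1) scale for the 6 genes in the 3 comparisons, with 95% confidence intervals from limma. Filled points had an adjusted p under 0.05. None of the 5 genes tested was called between B cell groups. Tnfrsf13c, Tnfrsf13b and Cd40 were called higher and Tnfsf13b and Tnfsf13 lower in B cells than in PMs.

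Genes that act downstream of these receptors were examined as a list of 24 NF-kB and TRAF signalling genes. Between the B cell groups, limma, edgeR and DESeq2 each called 0 of the 24. By limma, 6 were lower and 1 higher at an unadjusted p under 0.05, beside 661 and 1012 of all 21778 genes. The median log2 difference of the list was -0.18, beside 0.03 over all genes tested, and 18 of the 24 were below 0. The ranges did not overlap for 11 genes that were lower in CD11b+ B cells and for 1 that was higher, 12 of 24, beside 14.9% of all genes. Without the libraries numbered 3 these counts were 13 and 3, 16 of 24, beside 38.8% of all genes, and the median was -0.19. In the same comparison 5 of 15 mature B cell markers were lower and 0 higher without overlap, with a median of -0.12, and without the libraries numbered 3 these were 11 and 1 of 15 with a median of -0.24.

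Genes of the noncanonical pathway were among those without overlap and among those with it, and none passed the test. Nfkb2 was at 101, 102 and 97.4 FPKM in CD11b- B cells and 70.1, 90.4 and 67.2 FPKM in CD11b+ B cells (log2 difference -0.41, SE 0.15, limma adjusted p = 0.604). Relb, which encodes the partner of NF-kB2, was at 43.1, 42.4 and 48.2 FPKM and at 33.9, 36.3 and 34.0 FPKM in these groups (log2 difference -0.35, SE 0.12, limma adjusted p = 0.581). Nfkbie, an NF-kB inhibitor that is itself an NF-kB target, was at 85.2, 90.2 and 100 FPKM and at 66.5, 71.8 and 47.7 FPKM (log2 difference -0.58, SE 0.18, limma adjusted p = 0.495). Traf3, the inhibitor of this pathway, overlapped between groups (log2 difference -0.0024, SE 0.14), as did Map3k14, the gene of NIK (-0.13, SE 0.20), Chuk, which encodes the kinase IKK alpha (0.04, SE 0.17), and Birc2 (0.09, SE 0.14). The 1 gene that was higher in every CD11b+ library was Traf1, at 9.38, 9.05 and 8.04 FPKM against 4.82, 4.27 and 6.62 FPKM (log2 difference 0.67, SE 0.20, limma adjusted p = 0.482). The 2 most abundant genes of the list by mean FPKM over the 6 libraries were Nfkbia (log2 difference -0.29, SE 0.16) and Birc3 (-0.19, SE 0.12). In CD11b- B cells alone, Nfkb2 was above Birc3 (means of 100 and 94.3 FPKM). Apart from Nfkbia and Birc3, the genes of this paragraph were singled out after their values were seen.

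**Figure D5:**
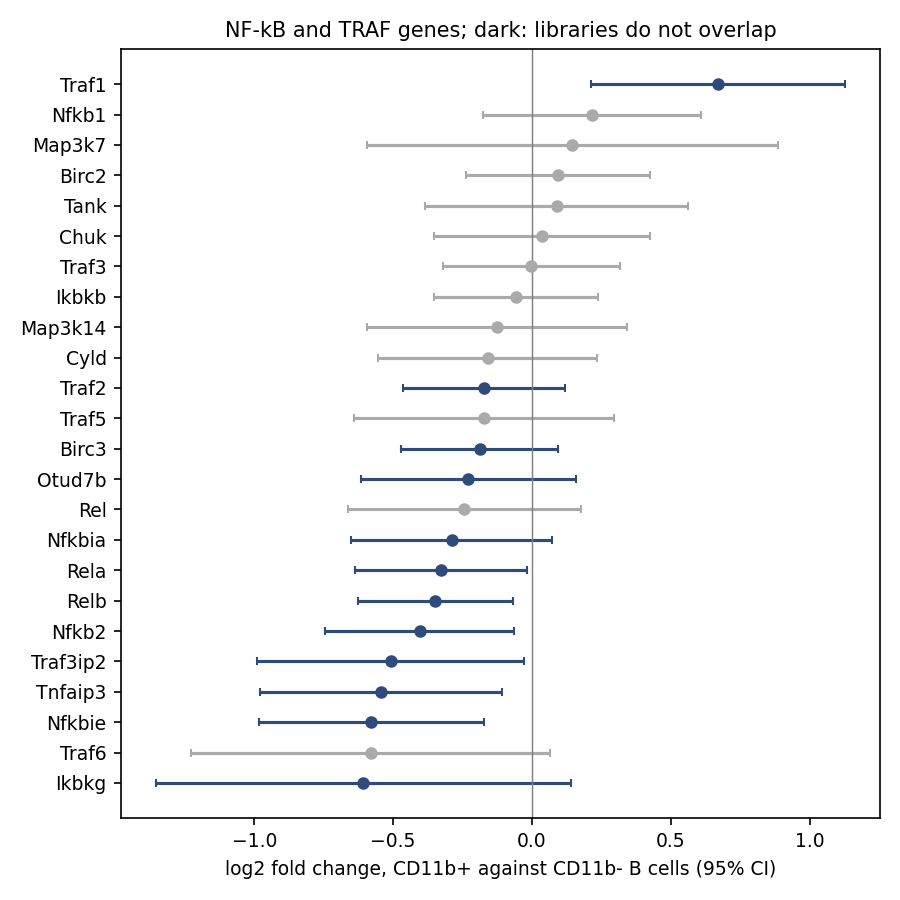
log2 fold change of 24 NF-kB and TRAF signalling genes in CD11b+ against CD11b- B cells on the log2(FPKM + 1) scale, with 95% confidence intervals from limma. Dark points mark the 12 genes whose libraries did not overlap, of which 11 were below 0 and Traf1 was above it, and none had an adjusted p under 0.05.

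Against PMs the same list was higher in B cells. In CD11b+ B cells 16 of 24 genes were called higher and 0 lower (median log2 difference 1.61, beside 0.25 over all genes), and in CD11b- B cells 23 of 24 and 0 (median 1.70, beside 0.24). Of all genes, 21.5% and 25.8% were called higher in these comparisons. With 1 library left out the counts were 15 to 21 and 15 to 22, the lowest of the latter without CD11b- replicate 3. With median-ratio scaling, 14 and 15 of the 24 genes were called higher. Traf5, which encodes an adaptor of the TNF receptor family, had the largest difference in CD11b+ B cells (3.10, SE 0.29, limma adjusted p = 0.000151), followed by Traf3ip2, an adaptor that restrains BAFF and CD40 signalling (3.03, SE 0.33, limma adjusted p = 0.000368), and Relb (2.96, SE 0.26, limma adjusted p = 0.000114). Birc3, encoding a ubiquitin ligase of the TRAF complex, was 2.27 higher (SE 0.41, limma adjusted p = 0.00425) and Nfkb2 2.30 higher (SE 0.19, limma adjusted p = 7.54e-05). Map3k14 was called only in the CD11b- comparison (1.47, SE 0.45, limma adjusted p = 0.0365). That call held in 1 of 6 settings with 1 library left out (without PM replicate 1), and the difference of Map3k14 between the B cell groups did not pass the direct test (limma adjusted p = 0.832).

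The survival genes regulated by these receptors were mixed. Of 12, 5 were higher and 3 lower in CD11b+ B cells than in PMs (beside 21.5% and 8.78% of all genes), and 4 and 3 in CD11b- B cells (beside 25.8% and 11.0%). Bcl2, the anti-apoptotic gene, was at 18.5, 17.4 and 12.2 FPKM in CD11b- B cells, 20.4, 19.3 and 24.9 FPKM in CD11b+ B cells and 3.24 to 3.71 FPKM in PMs, and was called higher in both groups than in PMs. Pim2, a survival kinase gene, had the largest difference from PMs (3.73, SE 0.41, limma adjusted p = 0.00034 in CD11b+ B cells). Bcl2a1b and Bcl2a1a, copies of the A1 gene, were lower in B cells (the Bcl2a1a call in CD11b+ B cells was lost without any 1 of the CD11b+ libraries, adjusted p up to 0.0695), whereas Bcl2a1d was called higher in CD11b+ B cells (1.77, SE 0.27, limma adjusted p = 0.00182). These near-identical copies can share reads, so that their separate values are uncertain. Between the B cell groups limma and edgeR called none of the 12. By limma, 3 were higher at an unadjusted p under 0.05, beside 1012 of all 21778 genes. Mcl1 and Pim2, the most abundant by mean FPKM over the 6 libraries, were at -0.05 (SE 0.35) and -0.72 (SE 0.32). In CD11b- B cells Pim2 averaged 72.3 FPKM, beside 61.9 FPKM for Pik3cd. Pim2 reached 117 FPKM in CD11b- replicate 3, against 47.2 and 52.6 FPKM in the other CD11b- libraries. DESeq2 called Bcl2a1d higher in CD11b+ B cells (log2 difference 1.23, adjusted p = 0.0292). Without a filter, edgeR called Bcl2a1d higher and Pim2 and Bcl2l1 lower (adjusted p = 0.0192, 0.00148 and 1.11e-08), and Bcl2l1, an anti-apoptotic gene, was at 24.6 FPKM in CD11b- replicate 3 and at 2.47 to 3.62 FPKM in the other B cell libraries. Under median-ratio scaling the median of the list changed sign in the CD11b- comparison with PMs (0.33 to -0.08).

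Genes listed with the release and binding of the ligands were mixed. Of 11 tested, 1 was higher (Sdc4) and 6 were lower in CD11b+ B cells than in PMs, beside 21.5% and 8.78% of all genes. In CD11b- B cells 2 were higher (Sdc4 and Adam17) and 6 lower, beside 25.8% and 11.0%, but the Adam17 call (limma adjusted p = 0.0467) held in only 1 of 6 settings with 1 library left out (without PM replicate 1) and in 3 of 11 other alternatives. The 6 lower genes in each comparison were Furin, Sdc3, Tnfsf12 and its read-through gene Tnfsfm13, and Itgam and Itgb2, the chains of the CD11b integrin by which PMs had been sorted. Furin, the protease that cleaves BAFF and APRIL, was lower by -1.22 (SE 0.29, limma adjusted p = 0.0162) and -1.16 (SE 0.27, limma adjusted p = 0.0125), calls that were each lost without replicate 1 or replicate 2 of the B cell group (adjusted p up to 0.0648 and 0.0561). Among the syndecans, heparan sulphate proteoglycans to which APRIL binds, Sdc4 was called higher and Sdc3 lower in B cells, and Sdc1 was not called (limma adjusted p = 0.545 and 0.553). Sdc4 was at 97.6, 109 and 103 FPKM in CD11b- B cells, 78.2, 78.1 and 81.7 FPKM in CD11b+ B cells and 5.14, 3.54 and 1.28 FPKM in PMs, whereas Sdc3 was at 143, 186 and 171 FPKM in PMs and at most 1.54 FPKM in B cells. Itgb2, the partner chain of CD11b, was at 51.9 to 61.7 FPKM in B cells and 495 to 609 FPKM in PMs. In the direct test of the B cell groups limma called 0 of 10 and edgeR 0 of 9, with Sdc4 at -0.37 (SE 0.12, limma adjusted p = 0.517) and Itgb2 at -0.06 (SE 0.12). At an unadjusted p under 0.05 by limma, Sdc3 and Itgam were higher and Sdc4 and Adam10 lower. Itgam is the gene of the marker on which the B cell groups were sorted. Over all 21778 genes, 1012 were higher and 661 lower at that p. DESeq2 called Sdc3 higher in CD11b+ B cells (log2 difference 1.38, adjusted p = 0.0128).

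Among genes known to respond to CD40, more were called higher than lower in B cells relative to PMs. Of 18 tested, 10 were higher and 2 lower in CD11b+ B cells than in PMs (all genes, 21.5% and 8.78%), and of 17 tested, 9 and 4 in CD11b- B cells (25.8% and 11.0%). With median-ratio scaling these counts were 10 and 4, and 9 and 5. Fcer2a, the low-affinity IgE receptor, had the largest difference (6.69, SE 0.23, limma adjusted p = 9.45e-07 in CD11b+ B cells), and is also one of the mature B cell markers used above. Next were Cd83 (5.50, SE 0.35, limma adjusted p = 1.72e-05) and Icosl, the ICOS ligand (3.61, SE 0.23, limma adjusted p = 1.63e-05). Fas, the death receptor induced by CD40, was lower in B cells (-1.26, SE 0.25, limma adjusted p = 0.00655 in CD11b+ B cells), as was Cd44. Between the B cell groups 0 of 18 were called by limma and 0 of 15 by edgeR, with Fcer2a at -0.31 (SE 0.15) and Cd83 at -0.41 (SE 0.31). By limma, 4 were higher and 1 lower at an unadjusted p under 0.05, beside 1012 and 661 of all 21778 genes. Fas was at 9.08, 5.43 and 5.2 FPKM in CD11b+ and 2.78, 3.29 and 2.34 FPKM in CD11b- B cells, and Cd80, a costimulatory ligand, at 4.93, 3.13 and 0.682 FPKM and 0.599, 0.364 and 0.581 FPKM. Both were named after their values were seen, and DESeq2 called both (adjusted p = 0.0244 and 0.00469). Without a filter, edgeR called Cd80 and Il6 (adjusted p = 0.000206 and 0.0147).

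Among the other TNF receptors, 5 were higher and 7 lower of 19 tested in each B cell group against PMs, beside 21.5% and 8.78% of all genes for CD11b+ and 25.8% and 11.0% for CD11b- B cells. The 3 most changed were Tnfrsf1a, the main TNF receptor (-5.77 in CD11b+ B cells, SE 0.36, limma adjusted p = 1.69e-05), Ltbr, the lymphotoxin beta receptor (-4.27, SE 0.39, limma adjusted p = 0.000121), and Tnfrsf21 (-3.61, SE 0.32, limma adjusted p = 0.000107). Tnfrsf18, which encodes GITR, was higher (2.99, SE 0.48, limma adjusted p = 0.00252). The median of this list was 0.14 and 0.12 in the 2 comparisons and changed to -0.30 and -0.33 under median-ratio scaling. For CD11b+ against CD11b- B cells limma called 0 of 18. At an unadjusted p under 0.05 by limma, 3 were higher, beside 1012 of all 21778 genes. DESeq2 called 2, Fas and Tnfrsf8. Relt was at 0.33 (SE 0.16) and Tnfrsf18 at 0.12 (SE 0.21). Tnfrsf8 (CD30), singled out after its values were seen, had 63, 64 and 223 reads in CD11b+ and 2, 4 and 1 reads in CD11b- B cells. The limma test did not call it (adjusted p = 0.35), whereas edgeR and DESeq2 did (adjusted p = 0.0482 and 3.57e-08).

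The other ligands of the family were headed by Ltb, lymphotoxin beta, at 548, 690 and 520 FPKM in CD11b- B cells and 500, 681 and 660 FPKM in CD11b+ B cells, beside 8.93, 5.47 and 4.51 FPKM in PMs. Compared with PMs, CD11b+ B cells had more Ltb and Lta by 6.43 (SE 0.26, limma adjusted p = 1.96e-06) and 4.98 (SE 0.22, limma adjusted p = 3.22e-06), and Tnf by 2.42 (SE 0.42, limma adjusted p = 0.0036). Of 14 tested, 4 were higher and 1 lower in CD11b+ B cells (all genes, 21.5% and 8.78%), and of 10 tested, 3 and 2 in CD11b- B cells (25.8% and 11.0%), Tnfsf12 being lower in both. In the comparison of B cell groups limma called 0 of 13 and edgeR 0 of 9, with Ltb at 0.06 (SE 0.21) and Lta at 0.15 (SE 0.17). By limma, 2 were higher at an unadjusted p under 0.05, beside 1012 of all 21778 genes. Cd70, the ligand of CD27, had 30, 22 and 7 reads in the CD11b+ libraries and 0 in the other 6. Against a floor of 3 reads over the group, the CD11b+ level was at least 21.7-fold higher than that of CD11b- B cells, and at least 14.2-fold to 31.3-fold with 1 library left out. The limma test did not call it (adjusted p = 0.449), whereas DESeq2 (adjusted p = 0.015) and edgeR without a filter (adjusted p = 0.0255) did. DESeq2 also called Tnfsf15 (adjusted p = 0.0403) and edgeR without a filter Tnfsf14 (adjusted p = 0.0323), both higher in CD11b+ B cells. Cd70, Tnfsf15 and Tnfsf14 were singled out by their values.

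The genes whose FPKM followed each member most closely over the 9 libraries were listed by Pearson's r, which reflects the 3 groups the libraries share and is given as a description. For Tnfrsf13c they were Fcer2a (r = 0.9995), Ppp1r16b and Srpk3. For Tnfrsf13b they were Cyb561a3, Ezr and Dclk2 (r = 0.998 to 0.999), and for Cd40 Mir5104, Gm34922 and Klhl14 (r = 0.997 for each). For Tnfsf13b they were Ptpro, B3galnt1 and Rgl3 (r = 0.997 to 0.998), and for Tnfsf13 Cma1, Ip6k3 and Ctsf (r = 0.987 to 0.998). Tnfrsf17 had lower values, with Gm17241, Gm37660 and Mir6399 at r = 0.925 to 0.946.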

How the data were processed

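Total RNA from sorted cells had been prepared with the RNeasy micro kit and made into SMART-seq HT libraries. Per the labels and methods, the authors trimmed reads (Trim Galore 0.4.4, Trimmomatic 0.36, cutadapt 1.16), aligned them with STAR 2.7.2b and counted them with featureCounts 1.6.1, and their processing notes name DESeq2 1.20.0 and the builds GRCm38 and GRCm39. The annotation release was not given in the sources used here, nor was the strand setting. The deposited FPKM table held 55322 genes in all 9 libraries. The authors also deposited normalised counts (signal) for 11063 genes selected by a p-value of 0.05 of an unstated test. FPKM times gene length gave whole reads for 100% of values (within 0.05 reads), at 18014658 to 35251215 reads per library, and so did the deposited normalised counts.

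Genes with a mean of at least 0.05 FPKM over the 6 libraries of a comparison were tested on log2(FPKM + 1) with limma 3.58.1 (R 4.3.3, trended prior), with Benjamini-Hochberg adjustment over all genes tested and a threshold of 0.05. edgeR 4.0.16 and DESeq2 1.42.0 on the recovered reads, other pseudocounts, filters and scalings, replicate blocks and leaving out each library were alternatives. Those on the normalised count table, without the B cell libraries numbered 3, with overlapping genes added up and of level shares and pooled folds with 1 library left out were chosen after seeing the data. Scripts were tested on simulated data. Intervals and floors from reads cover counting error only, since no molecular identifiers were used.

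The members and lists were chosen with earlier results of these data known. From the mature B cell marker list, 1 gene is not reported here. All 6 members were named. From the 6 pathway lists a selection of the called genes was named, not strictly by the size of the difference, or the 2 most abundant where none was called. For each member the 3 genes with the highest r (mean FPKM of at least 1, immunoglobulin and T cell receptor segments left out) were named. Positions came from GENCODE M21 by Ensembl ID.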

Additional observations from a re-analysis of the deposited data

How the results depend on the processing

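Tnfrsf13c, Tnfrsf13b, Cd40 and Tnfsf13b kept their direction and their calls against PMs under all 18 alternatives run for each. The Tnfsf13 call was lost in 6 of 19 alternatives in each comparison with PMs, without a filter on low values (adjusted p = 0.0749 and 0.0666) and in 5 of the 6 settings that left out 1 library. Tnfrsf17 in CD11b+ B cells against PMs was called in 7 of 16 alternatives, among them both smaller pseudocounts, DESeq2 and the replicate block. Between the B cell groups, the log2 difference of Tnfrsf13b was -0.29 to 0.028 when 1 library was left out and changed sign without CD11b+ replicate 3. edgeR without a filter called 1 member there, Tnfrsf17, at a log2 difference of 4.11. Of the pathway genes, limma called 0 between the B cell groups, edgeR 1 (Tnfrsf8), edgeR without a filter 8 and DESeq2 7. Over all genes, limma called 15 higher and 0 lower, edgeR 42 and 0, edgeR without a filter 416 and 155, DESeq2 328 and 64, edgeR on the normalised counts 59 and 0, limma without a filter 2 and 0, with a minimum of 1 FPKM 31 and 0, with a pseudocount of 0.1 34 and 3, with 1 of 0.01 23 and 2, with all 9 libraries in the fit 31 and 5, with quantile normalisation 9 and 0, without the libraries numbered 3 29 and 0, and with 1 library left out 3 to 40 and 0. The cause of these differences was not tested.

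Libraries with the same number did not deviate together in all pairs of B cell groups (r = 0.284, -0.0193 and 0.206 over 12493 genes), so the criterion for pairing, an r over 0.1 in every pair, was not met. The labels do not say whether the CD11b- and CD11b+ sorts were paired, and the numbers in their descriptions are equal for libraries 1 and 3 only. With the number in the title as a replicate block, 16 genes were called higher and 0 lower and 0 members, and with the number in the description 0 and 0. The fit with the description number compares the groups within libraries 1 and 3 only, so its lack of calls cannot decide about pairing. Libraries 1 and 3 correlated best with their own number and library 2 did not. Against PMs the replicate block called 6 members in CD11b+ B cells (Tnfrsf17, log2 difference 1.49, adjusted p = 0.0397) and the same 5 in CD11b- B cells. Low read counts limit what can be said of the ligands in B cells, where Tnfsf13 had 0 to 4 reads per library. The 3 libraries per group limit every comparison.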
